A study of Mus musculus with 14 samples.

Results

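The connexin genes Gja1, Gja3, Gja4, Gja5, Gjb2, Gjb5 and Gjb6 were followed in newborn mouse eyes after conditional knockout of the chromatin remodelling ATPase Snf2h or Brg1. The 7 genes were taken by name, with earlier results of these data known. Every probe set that the array annotation gives to 1 of them alone was used. This gave 12 of the 20380 single-gene probe sets and 7 of the 12393 genes on the array. Gja1 had 6 probe sets and each of the other genes had 1. The 6 Gja1 probe sets report the same gene and are not independent of each other.

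Connexins are membrane proteins that assemble into channels, and channels of neighbouring cells dock into gap junctions through which ions and small metabolites pass. The lens has no blood supply, and its fibre cells depend on gap junctions to share ions and nutrients with the epithelium at its surface. Gja3 encodes Cx46 of lens fibre cells. Gja1 encodes Cx43, which is made by lens epithelium, corneal cells and many other tissues. Gja4 and Gja5 encode Cx37 and Cx40, connexins of vessel endothelium. Gjb2, Gjb6 and Gjb5 encode Cx26, Cx30 and Cx31.1, connexins of skin and other surface epithelia.

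Total RNA of whole eyes was measured on 14 single-colour arrays, each loaded from 50 ng of RNA after amplification. The Snf2h cKO group held 4 samples of C57BL/6 mice at postnatal day 1 with a lens-conditional knockout of Snf2h, the ISWI ATPase encoded by Smarca5. It was set against 4 wildtype samples of C57BL/6 mice, also at postnatal day 1. The Brg1 cKO group held 3 samples at postnatal day 1 on a mixed background with a conditional knockout of Brg1, the SWI/SNF ATPase encoded by Smarca4. It was set against 3 wildtype samples of the same age on a mixed background. The labels name neither the Cre driver nor, for Brg1, the cells that lost the gene. They do not say that samples came from separate animals, so p-values measure only the spread between these samples. Strain and experiment cannot be told apart, and each knockout was compared with the wildtype arrays of its own experiment.

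The arrays were of like brightness, with a median intensity between 101 and 114. Snf2h cKO replicates 1 and 2 were nearly identical (SD of their log2 difference 0.217, against 0.419 to 0.723 in the 17 remaining within-group pairs). The 3' minus 5' difference of the Gapdh control probe sets, a sign of RNA quality, was 0.77 to 0.99 on the log2 scale in Snf2h cKO arrays and 1.09 to 4.47 in their wildtype arrays, with replicate 3 the highest. In the Brg1 experiment it was 0.63 to 0.96 in cKO arrays and 0.68 to 0.74 in wildtype arrays. Of 3 Smarca5 probe sets in Snf2h cKO eyes, 1424205_at gave −0.50 ± 0.16 on the log2 scale (SE, adjusted p = 0.188 by limma), 1424206_at −0.19 ± 0.25 and 1424207_at 0.31 ± 0.25. Of 2 Smarca4 probe sets in Brg1 cKO eyes, 1426805_at gave −0.74 ± 0.30 (SE, adjusted p = 0.579) and 1426804_at 0.05 ± 0.22. None passed the test, and the signs differ within each gene. Markers of the expected tissues were present in wildtype eyes: the mean log2 intensity was 10.95 to 11.24 over 11 lens fibre genes, 8.04 to 8.43 over 17 surface epithelium genes and 6.67 to 7.25 over 16 endothelial genes in Brg1 wildtype arrays.

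In the RefSeq gene table for GRCm38.p6, Gja3, Gjb2 and Gjb6 follow each other on chromosome 14 with no other listed gene between them. The promoters of the chromosome 14 genes are shown because Gja3 and its neighbours had changes of opposite sign in Brg1 cKO eyes. Only the Gja3 change passed the test, while Gjb2 and the dim Gjb6 did not (adjusted p = 0.0994 and 0.547 by limma). Each sequence is the 250 bases before the RefSeq start, 5′ to 3′ on the minus strand of GRCm38.p6. Capitals mark the motif GGGCGG, known as the GC box, or its reverse complement. They also mark the reverse complement of TATAAA, the TATA box motif.
Gja3, chr14:57058031-57058280: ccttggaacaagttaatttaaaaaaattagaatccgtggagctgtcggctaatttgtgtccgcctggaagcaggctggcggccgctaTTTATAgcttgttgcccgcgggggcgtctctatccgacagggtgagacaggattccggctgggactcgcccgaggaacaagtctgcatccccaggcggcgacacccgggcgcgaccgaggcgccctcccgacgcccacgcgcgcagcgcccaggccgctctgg
Gjb2, chr14:57104703-57104952: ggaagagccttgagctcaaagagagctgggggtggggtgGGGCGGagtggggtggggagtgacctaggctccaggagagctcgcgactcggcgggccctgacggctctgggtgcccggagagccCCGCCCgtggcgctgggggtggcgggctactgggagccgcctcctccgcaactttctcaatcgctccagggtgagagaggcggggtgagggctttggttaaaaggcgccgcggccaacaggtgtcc
Gjb6, chr14:57133612-57133861: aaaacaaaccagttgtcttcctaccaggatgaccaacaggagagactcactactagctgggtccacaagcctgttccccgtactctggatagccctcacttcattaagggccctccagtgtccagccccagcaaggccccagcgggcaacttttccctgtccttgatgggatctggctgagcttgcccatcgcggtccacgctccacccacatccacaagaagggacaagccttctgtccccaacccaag

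Motifs were searched on both strands of the 300-base windows, which run from 250 bases before to 50 bases after each start, for all 7 connexin genes. Gja3 had 2 annotated starts, of which the one shown is the more upstream. GGGCGG was found in windows of Gja3, Gja4, Gja5 and Gjb2, 2 times in Gjb2, and 35.7% of all 32851 promoter windows hold it. The Gja3 match lies after the start and is not in the sequence above. TATAAA was found, on the opposite strand, in windows of Gja3 and Gjb5, and 13.6% of all windows hold it. TGANTCA, the AP-1 motif, was found in the Gja1 window alone among these genes and in 7.81% of all windows. GAANNTTC, a core of the heat shock element, was found in no window of the 7 genes and in 7.86% of all windows. These are letter matches in these windows and not measured binding sites.

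Among the connexins, Gja3 alone passed the test, and it did so in Brg1 cKO eyes. With limma and Benjamini-Hochberg adjustment over all single-gene probe sets, 1 of 12 connexin probe sets was lower in Brg1 cKO eyes at an adjusted p under 0.05, where 0.26% of all probe sets were called lower and 0.623% in either direction. None of the 12 was called higher, where 0.363% of all were. In Snf2h cKO eyes 0 of 12 were called, where 0% of all 20380 were, and 0 of the 12 had an unadjusted p under 0.05, against 17.7% of all (10.1% higher and 7.58% lower). In the Brg1 comparison 4 of the 12 had an unadjusted p under 0.05, against 8.13% of all probe sets. Of these, 3 were higher (Gja4, Gjb2 and Gjb6), against 4.44% of all, and 1 was lower (Gja3), against 3.68% of all. Array values did not overlap between Brg1 cKO and wildtype for 6 of the 12 against 13.4% of all probe sets. In 3 of them the cKO arrays were higher, against 7.23% of all, and in 3 lower, against 6.2% of all. The 3 lower were Gja3 and the Gja1 probe sets 1438650_x_at and 1438945_x_at, whose changes were −0.10 and −0.25. The genes were chosen with earlier results of these data known, and Gja1 probe sets are not independent. Counts of the 12 and shares of all probe sets are therefore not directly comparable, here and for the difference of effects. In the Snf2h experiment cKO and wildtype values overlapped for all 12 connexin probe sets, while 10.7% of all probe sets had groups that did not overlap (6.52% higher and 4.17% lower in cKO arrays). The median log2 change of the 12 was −0.10 in Brg1 cKO and −0.09 in Snf2h cKO eyes, beside −0.006 and −0.03 over all probe sets. Of the 12 values 6 are Gja1, so these medians mostly reflect that gene. In Brg1 cKO eyes Gja4, Gja5, Gjb2, Gjb5 and Gjb6 had positive changes and Gja3 a negative one. In Snf2h cKO eyes Gja3, Gja5 and Gjb5 had positive changes and Gja4, Gjb2 and Gjb6 negative ones.

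**Figure D1:**
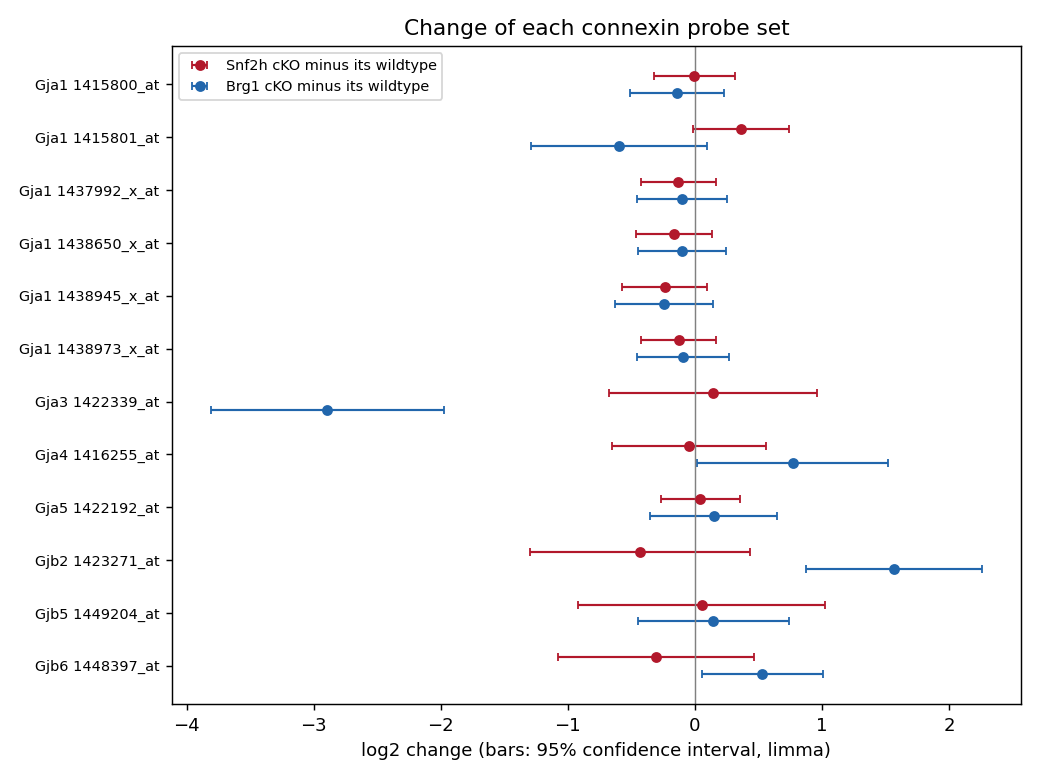
Log2 change of each connexin probe set (horizontal axis) in Snf2h cKO (red) and Brg1 cKO eyes (blue) against their own wildtype, with 95% confidence intervals from limma. The Gja3 interval in Brg1 cKO eyes lies far below 0, at −3.81 to −1.98, and those of Gjb2, Gja4 and Gjb6 lie above 0.

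Gja3, the fibre connexin, fell 7.43-fold in Brg1 cKO eyes. The log2 intensity of 1422339_at was 3.95, 5.49 and 4.38 in Brg1 cKO arrays, against 7.81, 7.17 and 7.52 in Brg1 wildtype arrays. All 3 knockout arrays lay below every wildtype array, and the gap between the groups was wider than the spread within either. The group means were 4.61 ± 0.80 in cKO and 7.50 ± 0.32 in wildtype eyes (SD, n = 3 each). The log2 change was −2.89 ± 0.39 (SE, adjusted p = 0.0297 by limma). The fold is approximate, since the knockout level was dim and the background of the arrays is not known. The change kept its size when any 1 array was left out (−3.335 to −2.56), but its adjusted p then often missed 0.05. It was 0.174, 0.109 and 0.136 when wildtype replicates 1, 2 and 3 were left out in turn and 0.122 with cKO replicate 3 left out, while leaving out cKO replicate 1 or 2 gave 0.0449 and 0.0028. With the replicate number as a block it was 0.0921.

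In Snf2h cKO eyes Gja3 showed no change beyond the spread of its arrays. Its log2 intensity was 4.62, 4.60, 6.04 and 5.39 in Snf2h cKO arrays, against 5.21, 5.20, 4.20 and 5.46 in their wildtype arrays. The groups overlapped, with the near-identical cKO replicates 1 and 2 low and cKO replicate 3 the highest of the 8. The log2 change was 0.14 ± 0.37 (SE, 95% interval −0.68 to 0.96, adjusted p = 0.860 by limma). It was −0.13 without wildtype replicate 3 and 0.33 with cKO replicates 1 and 2 averaged. The Brg1 effect minus the Snf2h effect was −3.04 ± 0.59 on the log2 scale (SE, adjusted p = 0.0294, limma over all 14 arrays), with an adjusted p of 0.135 under the replicate block. The Snf2h wildtype arrays (4.20 to 5.46) already lay at the level of the Brg1 cKO arrays (3.95 to 5.49). How large a fall could be measured from this level was not tested, since the background of the arrays is not known. The difference of effects rests on the high Brg1 wildtype group. In that test 1 of 12 connexin probe sets was called, and it was lower, against 0.687% of all called, 0.545% higher and 0.142% lower. At an unadjusted p under 0.05, 1 of the 12 was higher (Gjb2) and 2 were lower (Gja3 and Gja1 1415801_at), against 6.07% and 6.48% of all. Leaving out 1 array ended the call in 6 of 14 fits, with adjusted p values of 0.113 (Brg1 wildtype replicate 1), 0.0803 (Brg1 wildtype replicate 3), 0.0579 (Brg1 cKO replicate 1), 0.0532 (Snf2h wildtype replicate 3), 0.0585 (Snf2h cKO replicate 3) and 0.0723 (Snf2h cKO replicate 4).

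Other genes of the lens fibre were also low in Brg1 cKO eyes, and their part in the Gja3 result was not tested. Of 11 measured fibre genes 2 fell, 0 rose and all 11 had negative changes, with a median log2 change of −2.28, beside 0.02 over the brightest probe set of every gene. The 2 that fell were Dnase2b, the nuclease that clears DNA from fibre nuclei (−4.45 ± 0.68 SE, adjusted p = 0.0438 by limma), and Caprin2, an RNA-binding protein of lens (−2.17 ± 0.25 SE, adjusted p = 0.0153). The mean log2 intensity of the 11 genes was 7.46 to 9.74 in Brg1 cKO arrays and 10.95 to 11.24 in Brg1 wildtype arrays. Brg1 cKO replicates 1, 2 and 3 had fibre means of 8.33, 9.74 and 7.46 beside Gja3 levels of 3.95, 5.49 and 4.38, so replicate 2 was highest in both, while the other 2 arrays were in opposite order. In Snf2h cKO eyes 0 of the 11 fibre genes were called and 10 had negative changes (median −0.72, beside −0.05 over all genes), with array means of 10.05 to 11.01 in cKO and 10.67 to 11.34 in wildtype arrays. Of 10 genes listed for lens epithelium 1 fell in Brg1 cKO eyes, the transcription factor Prox1 (−1.83 ± 0.20 SE, adjusted p = 0.0150), and 9 had negative changes. No other gene of this list was called. Next by p were Fgfr3 (−1.02 ± 0.25), Cryab (−1.52 ± 0.39) and Sox2 (−0.75 ± 0.21; SE, adjusted p = 0.214, 0.251 and 0.313 by limma). The median change of this list was −0.52. Its array means were 7.68 to 7.78 in Brg1 cKO and 8.29 to 8.54 in Brg1 wildtype arrays. Pitx3 gave −0.28 ± 0.21, and the dim Foxe3 had the 1 positive change, 0.03 ± 0.19 (SE, adjusted p = 0.798 and 0.978 by limma). In whole eyes, fewer fibre cells and less Gja3 RNA per cell cannot be told apart.

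**Figure D2:**
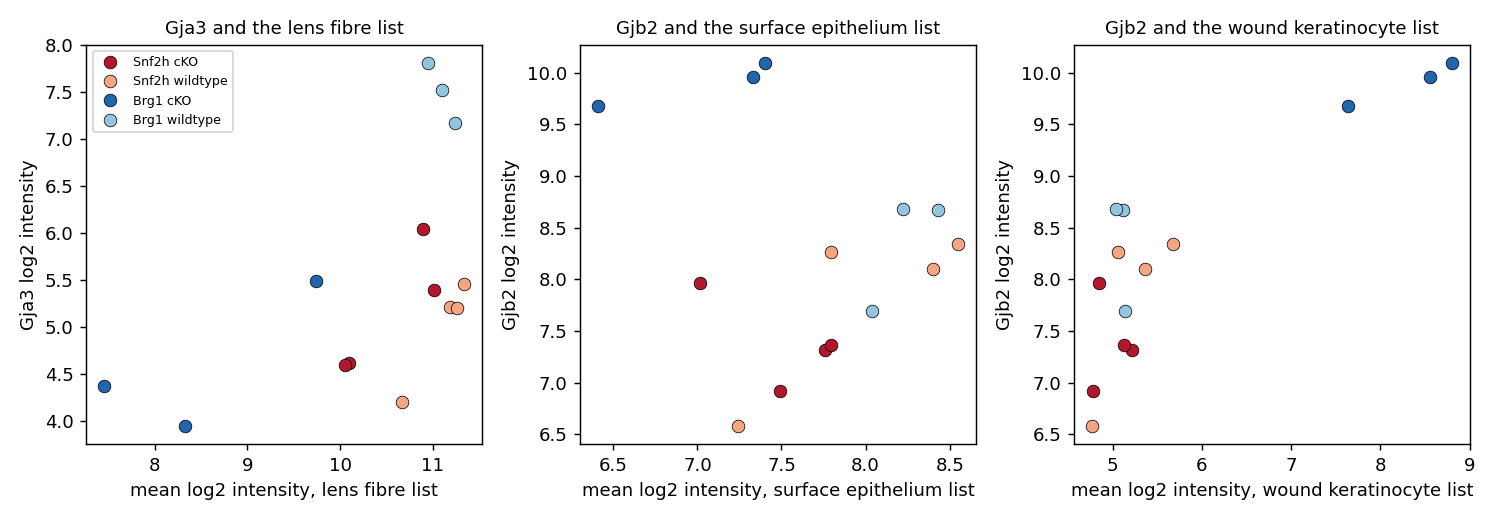
Log2 intensity of Gja3 or Gjb2 in each array (vertical axes) against the mean log2 intensity of a marker list in the same array (horizontal axes), with points coloured by group. The 3 Brg1 cKO arrays are low in Gja3 and in lens fibre genes, and high in Gjb2 and in wound keratinocyte genes while low in surface epithelium genes. Snf2h wildtype arrays are also low in Gja3 (4.20 to 5.46), with lens fibre means of 10.67 to 11.34.

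Gja1, the widely expressed connexin, was bright and had similar levels in knockout and wildtype eyes. The brightest probe set, 1437992_x_at, had log2 intensities of 11.59, 11.56 and 11.67 in Brg1 cKO arrays, against 11.74, 11.67 and 11.71 in Brg1 wildtype arrays. It had 11.06, 11.15, 11.19 and 11.26 in Snf2h cKO arrays, against 11.36, 11.46, 11.24 and 11.12 in Snf2h wildtype arrays. Values overlapped in both experiments. Over the 5 probe sets above the median level of all probe sets, log2 changes were −0.25 to −0.09 in Brg1 cKO and −0.24 to −0.007 in Snf2h cKO eyes. Their 95% intervals lay within −0.63 and 0.27 for Brg1 and within −0.57 and 0.31 for Snf2h, and adjusted p values were 0.427 or higher by limma. In 2 of the 5, 1438650_x_at and 1438945_x_at, all Brg1 cKO arrays were lower than all Brg1 wildtype arrays, by −0.10 ± 0.15 and −0.25 ± 0.16 (SE, adjusted p = 0.908 and 0.782).

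The dim Gja1 probe set, 1415801_at, had log2 changes of −0.59 ± 0.30 in Brg1 cKO and 0.36 ± 0.17 in Snf2h cKO eyes (SE, adjusted p = 0.699 and 0.296 by limma). It had 3.74, 4.05 and 4.79 in Brg1 cKO arrays and 4.91, 4.48 and 4.98 in Brg1 wildtype arrays, and the groups overlapped. Its opposite signs were not shared by the 5 brighter probe sets of the same gene. Of the 6 Gja1 probe sets, 4 have names ending in _x_at, which marks probes that may also match other transcripts.

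**Figure D3:**
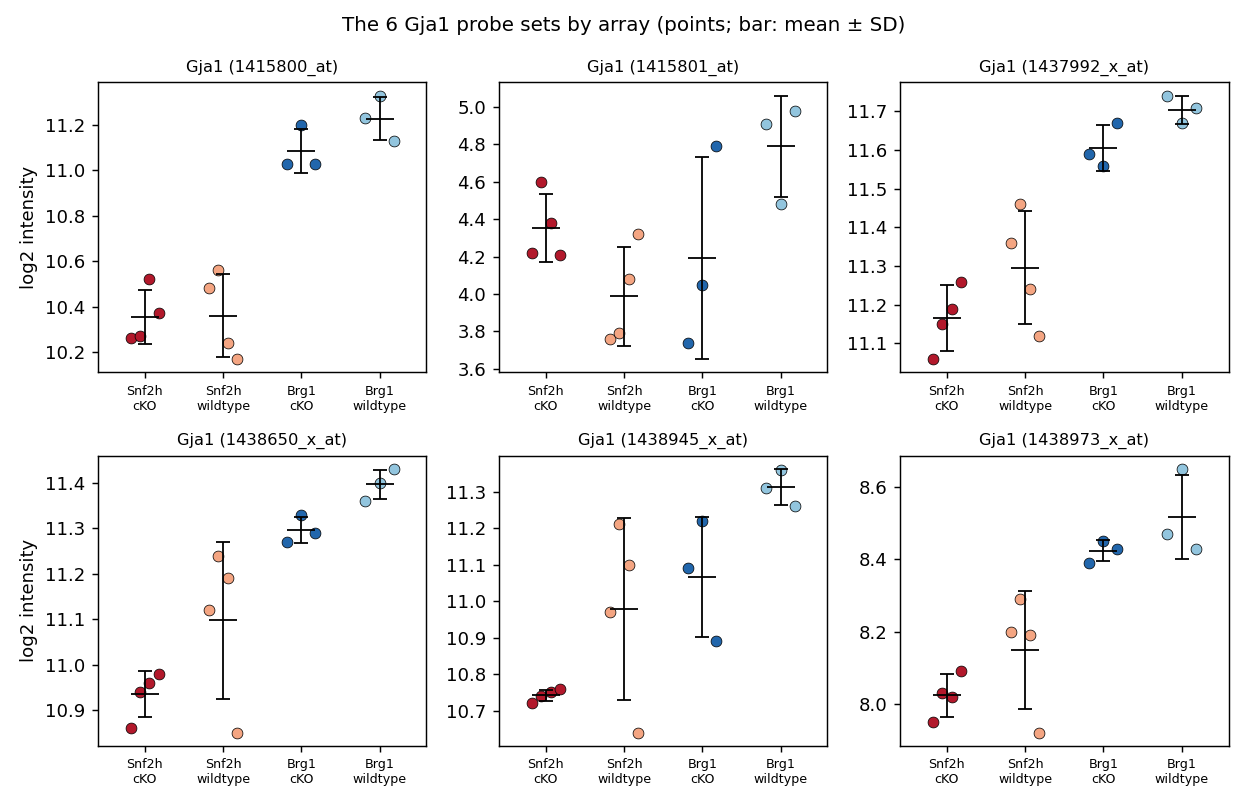
Log2 intensity of the 6 Gja1 probe sets (vertical axes) in each array (points) of the 4 groups (horizontal axes), with mean ± SD. In the 5 brighter probe sets every Brg1 wildtype array lies above every Snf2h wildtype array, and within each experiment cKO means are slightly lower than wildtype means.

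Gjb2, a connexin of surface epithelium, had the largest positive change of the 7 genes in Brg1 cKO eyes and did not pass the test. The log2 intensity of 1423271_at was 9.68, 10.10 and 9.96 in Brg1 cKO arrays, against 8.67, 8.68 and 7.69 in Brg1 wildtype arrays. All 3 knockout arrays lay above every wildtype array. The change was 1.57 ± 0.30 on the log2 scale, or 2.96-fold (SE, 95% interval 0.87 to 2.26, adjusted p = 0.0994 by limma, n = 3 each). In Snf2h cKO arrays Gjb2 had 7.32, 7.36, 6.92 and 7.97, against 8.26, 6.58, 8.34 and 8.10 in Snf2h wildtype arrays. Wildtype replicate 2 was the lowest of these 8 arrays and the other 3 wildtype arrays were the highest. The change was −0.43 ± 0.39 (SE, 95% interval −1.29 to 0.43, adjusted p = 0.575), and −0.84 without wildtype replicate 2 (adjusted p = 0.171). The Brg1 effect minus the Snf2h effect was 1.997 ± 0.553 (SE, adjusted p = 0.152). Without Snf2h wildtype replicate 2 it was 2.41 with an adjusted p of 0.0154, so this 1 array decided that call.

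In Brg1 cKO eyes, where Gjb2 was high, markers of surface epithelium were mostly low and those of wound keratinocytes high. Of 17 measured genes of corneal and other surface epithelium 2 fell, 0 rose and 15 had negative changes (median −0.77). The 2 that fell were the corneal keratin Krt12 (−3.70 ± 0.20 SE, adjusted p = 0.000546 by limma) and the epithelial transcription factor Ehf (−3.62 ± 0.33 SE, adjusted p = 0.00717). The mean log2 intensity of the list was 6.41 to 7.40 in Brg1 cKO arrays and 8.04 to 8.43 in wildtype arrays. Of 13 wound keratinocyte genes 7 rose, 0 fell and all 13 had positive changes (median 2.98), with list means of 7.64 to 8.80 in Brg1 cKO and 5.04 to 5.14 in wildtype arrays. Over all probe sets 0.363% were called higher. Among those of the list that rose were the wound keratin Krt16 (6.75 ± 0.26 SE, adjusted p = 0.000267 by limma) and the cornified envelope gene Sprr1b (5.62 ± 0.26 SE, adjusted p = 0.000537). The 7 also included S100a8 (5.01 ± 0.54 SE, adjusted p = 0.0138) and S100a9 (4.48 ± 0.41 SE, adjusted p = 0.0073). Which cells of the whole eye made these RNAs was not tested. Of 15 neutrophil and macrophage genes 5 rose and 0 fell (median 1.57), among them the chemoattractant receptor gene Fpr2 (5.15 ± 0.42 SE, adjusted p = 0.00502). What part these cells have in the Gjb2 values was not tested.

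In Snf2h cKO eyes 0 genes of these 3 lists were called. Changes were negative for 13 of 17 surface epithelium genes (median −0.41, beside −0.05 over all genes). They were also negative for 8 of 13 wound keratinocyte genes (median −0.10) and 11 of 15 neutrophil and macrophage genes (median −0.19). The surface epithelium list had array means of 7.02 to 7.79 in Snf2h cKO and 7.24 to 8.55 in wildtype arrays, and wildtype replicate 2 was the lowest wildtype array in this list as in Gjb2. That array was also the lowest wildtype array for wound keratinocyte, neutrophil and macrophage, endothelium (6.46), mural cell (7.335) and corneal stroma (9.44) genes. It was not the lowest for lens fibre genes and was the highest wildtype array for lens epithelium genes (8.265). The wound keratinocyte list had 4.78 to 5.21 in Snf2h cKO and 4.77 to 5.67 in wildtype arrays.

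Gjb6, the chromosome 14 neighbour of Gjb2, was dim. The log2 intensity of 1448397_at was 2.59, 3.02 and 2.36 in Brg1 cKO arrays, against 2.12, 2.15 and 2.11 in Brg1 wildtype arrays. All 3 knockout values were higher, at levels where 8.08% of all probe sets are dimmer. The log2 change was 0.53 ± 0.20 (SE, adjusted p = 0.547 by limma). In Snf2h cKO arrays Gjb6 had 2.66, 2.72, 2.35 and 3.04, against 3.93, 2.20, 3.35 and 2.54 in Snf2h wildtype arrays, and the change was −0.31 ± 0.35 (SE, adjusted p = 0.658). The wildtype arrays spread on both sides of the knockout arrays.

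Gjb5, a connexin of stratified epithelium, overlapped between knockout and wildtype in both experiments. The log2 intensity of 1449204_at was 4.62, 3.85 and 3.74 in Brg1 cKO arrays, against 3.96, 4.0 and 3.82 in Brg1 wildtype arrays (change 0.14 ± 0.25 SE, 95% interval −0.45 to 0.74, adjusted p = 0.926 by limma). It was 3.65, 3.93, 4.68 and 4.41 in Snf2h cKO arrays, against 3.14, 3.73, 4.17 and 5.41 in Snf2h wildtype arrays (change 0.05 ± 0.43 SE, 95% interval −0.92 to 1.02, adjusted p = 0.959). Wildtype replicates 1 and 4 of the Snf2h experiment held its lowest and highest values.

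**Figure D4:**
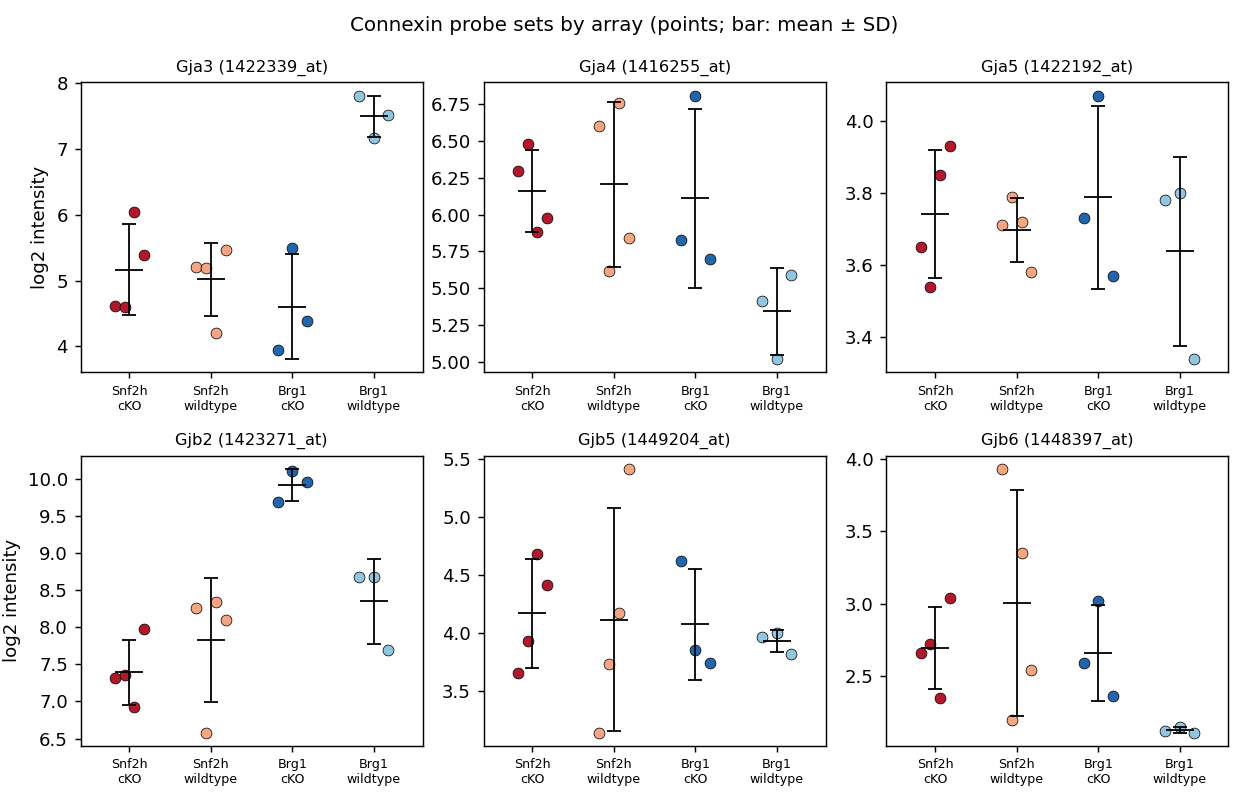
Log2 intensity of Gja3, Gja4, Gja5, Gjb2, Gjb5 and Gjb6 (vertical axes, with a scale of its own in each panel) in each array (points) of the 4 groups (horizontal axes), with mean ± SD. Gja3 is high in Brg1 wildtype arrays alone (7.17 to 7.81), and Gjb2 is highest in Brg1 cKO arrays (9.68 to 10.10).

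Gja4, an endothelial connexin of arteries, was higher in all Brg1 cKO arrays than in any Brg1 wildtype array and did not pass the test. The log2 intensity of 1416255_at was 5.83, 6.81 and 5.70 in Brg1 cKO arrays, against 5.41, 5.02 and 5.59 in Brg1 wildtype arrays. The narrowest gap between the groups was small (5.70 against 5.59), and cKO replicate 2 stood above the rest. The log2 change was 0.77 ± 0.32 (SE, 95% interval 0.02 to 1.52, adjusted p = 0.602 by limma). In Snf2h cKO arrays Gja4 had 6.30, 6.48, 5.88 and 5.98, against 6.60, 5.62, 6.76 and 5.84 in Snf2h wildtype arrays, and the change was −0.05 ± 0.27 (SE, adjusted p = 0.943).

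Gja5, the other endothelial connexin, was near the low end of the array's range. The log2 intensity of 1422192_at was 3.73, 4.07 and 3.57 in Brg1 cKO arrays, against 3.78, 3.80 and 3.34 in Brg1 wildtype arrays, and 19.0% of all probe sets were dimmer on average. It was 3.65, 3.54, 3.85 and 3.93 in Snf2h cKO arrays, against 3.71, 3.79, 3.72 and 3.58 in Snf2h wildtype arrays, and groups overlapped in both experiments. The log2 changes were 0.15 ± 0.21 in Brg1 cKO and 0.04 ± 0.14 in Snf2h cKO eyes (SE, adjusted p = 0.904 and 0.888 by limma). Their 95% intervals were −0.35 to 0.65 and −0.26 to 0.35.

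Endothelial markers as a list had 0 calls in either knockout. Of 16 genes, 14 had positive changes in Brg1 cKO eyes (median 0.42, beside 0.02 over all genes) and 6 in Snf2h cKO eyes (median −0.08). The mean log2 intensity of the list was 6.73 to 7.73 in Brg1 cKO and 6.67 to 7.25 in Brg1 wildtype arrays. Brg1 cKO replicate 2, the highest array for Gja4, was also the highest for this list and for 10 mural cell genes (9.32, against 7.77 to 8.77 in the other arrays of that experiment). The other arrays did not run the same way: cKO replicate 1 had the lowest mural mean (7.77) and an endothelial mean of 6.73 with Gja4 at 5.83, above every wildtype array. Wildtype replicate 3 had means of 8.77 and 7.25 with Gja4 at 5.59. What part the amount of vessel has in the Gja4 values was not tested.

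The order of the 4 groups was not the same for all connexins. For Gja3 the Brg1 wildtype group was highest, by 2.48 on the log2 scale over Snf2h wildtype, and the Snf2h cKO, Snf2h wildtype and Brg1 cKO groups overlapped with each other. A difference between the wildtype groups of this size or more was found in 0.638% of all probe sets. The lens fibre list did not separate the wildtype groups (10.95 to 11.24 in Brg1 and 10.67 to 11.34 in Snf2h wildtype arrays). For Gjb2 the Brg1 cKO group was highest and the other 3 groups overlapped. For the brighter Gja1 probe sets the wildtype groups differed by 0.30 to 0.87, with Brg1 wildtype higher. For Gja4 and Gjb6 the Brg1 wildtype group was lowest, by −0.86 and −0.87 against Snf2h wildtype. For Gja5 and Gjb5 all groups overlapped. In all, the wildtype groups did not overlap for 9 of 12 connexin probe sets, against 44.5% of all probe sets. These 9 were the 6 probe sets of Gja1, which are not independent of each other, and those of Gja3, Gja4 and Gjb6. The 2 shares are therefore not directly comparable. The strains and experiments differ between these groups, so these differences are given as a description and were not tested.

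Other members of the gap junction families did not pass the test in either knockout. Of 16 further connexins and pannexins listed, 7 were measured, namely Gja10, Gjb1, Gjc1, Gjc3, Gjd2, Gjd4 and Panx1, while the other 9 were not analysed here. Over their 8 probe sets limma called 0 in Brg1 cKO and 0 in Snf2h cKO eyes, 0 had an unadjusted p under 0.05 in either, and the lowest adjusted p was 0.402. Panx1, which forms channels in single membranes, had the largest change in Brg1 cKO eyes (0.36 ± 0.18 SE, adjusted p = 0.707) and gave 0.18 ± 0.15 in Snf2h cKO eyes (adjusted p = 0.544). Of the 7 genes, Gjc1 and Panx1 were above the median level of all probe sets.

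Of 20 listed partners and regulators of gap junctions 16 were measured, and 0 were called in either knockout. At an unadjusted p under 0.05, 0 were higher and 3 lower in Brg1 cKO eyes (Tjp1, Cdh1 and Ctnnd1), beside 4.44% and 3.68% of all probe sets. In Snf2h cKO eyes 1 was higher (Dbn1) and 3 were lower (Ccn3, Ctnna1 and Cdh1), beside 10.1% and 7.58%. Dbn1, Ccn3, Ctnna1 and Ctnnd1 are named after their values were seen. Dbn1, the actin-binding protein drebrin, gave 0.71 ± 0.21 and Ccn3 −0.87 ± 0.28 in Snf2h cKO eyes (SE, adjusted p = 0.164 and 0.184 by limma). Tjp1, the scaffold protein that binds the tail of Cx43, gave −0.53 ± 0.17 in Brg1 cKO and −0.26 ± 0.19 in Snf2h cKO eyes (SE, adjusted p = 0.408 and 0.485 by limma). Cdh1, the epithelial cadherin, gave −1.07 ± 0.38 and −0.76 ± 0.34 (adjusted p = 0.512 and 0.282). Cdh2, the cadherin of lens fibres and neurons, gave −0.35 ± 0.19 and −0.05 ± 0.20 (adjusted p = 0.732 and 0.924). The median change of the 16 was −0.07 in Brg1 cKO and −0.08 in Snf2h cKO eyes.

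**Figure D5:**
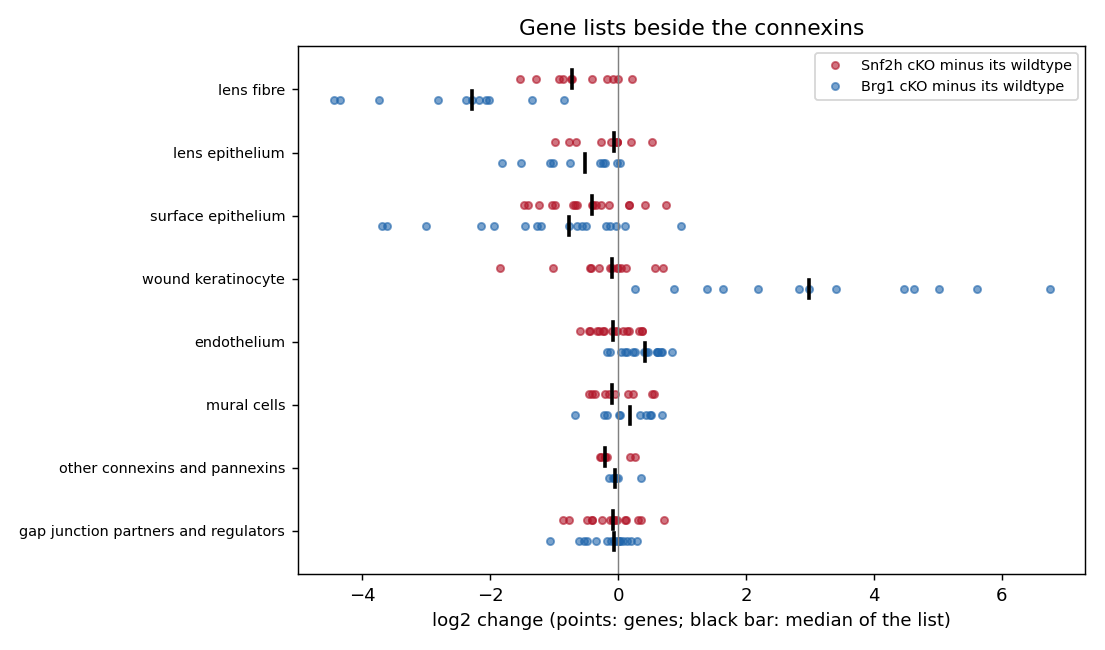
Log2 change of each gene (points, horizontal axis) in 8 gene lists (rows) in Snf2h cKO (red) and Brg1 cKO eyes (blue), with the median of each list as a black bar. Lens fibre genes lie lowest in Brg1 cKO eyes (median −2.28) and wound keratinocyte genes highest (median 2.98), while other connexins and gap junction partners lie near 0.

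The genes whose pattern was most like that of each connexin were found from the 14 arrays, with values centred within each experiment. Candidates were the brightest probe set of every gene at or above the median level, 7086 or 7087 for each connexin. These correlations share the same arrays and group differences and are given as a description. For Gja3 the 3 highest were Plaat3, a phospholipase of lens organelle loss (r = 0.929), the crystallin Cryba2 (0.929) and Bfsp1, the fibre cytoskeleton protein filensin (0.911). In Brg1 cKO eyes Plaat3 fell (−1.85 ± 0.23 SE, adjusted p = 0.0192 by limma), and Cryba2 and Bfsp1 gave −2.78 ± 0.67 and −4.35 ± 0.80 (adjusted p = 0.204 and 0.0911).

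For Gjb2 the most similar genes were the nucleotide sugar transporter gene Slc35b4 (r = 0.912), the keratinocyte gene Krtdap (0.837) and the prostaglandin receptor gene Ptger4 (0.834). Krtdap gave 1.74 ± 0.33 in Brg1 cKO eyes and −1.05 ± 0.40 in Snf2h cKO eyes (SE, adjusted p = 0.103 and 0.233 by limma). For Gja4 they were the lipoprotein receptor gene Lrp1 (0.941), the muscle calcium channel gene Ryr1 (0.939) and Ppfia4 (0.922). For Gja1 they were Prps1l3 (0.891), Dr1 (0.885) and Rspry1 (0.852), and for Gjb6 Igfbp5 (0.844), Fmo1 (0.841) and Phldb2 (0.833). The dim Gja5 and Gjb5 had Tor1aip2 (0.831), Ppp6c (0.817) and Pinx1 (0.815), and Ddx20 (0.829), Elac2 (0.822) and Gnl3 (0.821).

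Among the connexins themselves, over the same 14 centred arrays, Gja4 and Gjb6 (r = 0.766) and Gjb2 and Gjb6 (0.735) were the most alike pairs. Gja3 and Gjb2 were the most opposed pair (r = −0.661).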

How the data were processed

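Probe set intensity on a linear scale was deposited by the authors for 14 arrays, summarised with RMA per the submitters' processing notes. The RMA version, and whether the experiments were normalised as 1 set, are not given in the sources used here. Deposited intensities were put on the log2 scale and not scaled again. Of 22690 probe sets, 64 controls, 691 with several genes and 1555 with no gene were left out, and genes were those of the array annotation. No detection calls came with the values. The number of arrays limits the precision.

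Linear models (lmFit, eBayes) were fitted in limma 3.58.1 under R 4.3.3, two-sided, with Benjamini-Hochberg adjustment over 20380 probe sets and a threshold of 0.05. Each experiment was fitted alone, and the difference of effects was a contrast over all arrays. Every connexin probe set is named. Lists use the brightest probe set of each gene. Marker lists name up to 4 genes with the smallest p, and Pitx3, Foxe3, S100a8 and S100a9 besides. Gap junction lists name called genes and, whatever their values, Panx1, Tjp1, Cdh1 and Cdh2. Likeness takes the 3 highest correlations. Members and lists were chosen with earlier results of these data known. Promoters are from RefSeq (GRCm38.p6), and all 7 genes matched. Alternatives were quantile normalisation, a filter on dim probe sets, 1 probe set per gene, all probe sets, trended robust eBayes, array weights, a replicate block, 1 fit over all arrays, averaging the near-identical arrays and leaving out each array.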

Additional observations from a re-analysis of the deposited data

Results flagged for a closer look

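Gja3 stood out because the knockout effects differed in the test of the difference itself. The Brg1 effect minus the Snf2h effect was −3.04 on the log2 scale (adjusted p = 0.0294 by limma). In each of the 3 Brg1 cKO arrays Gja3 was below every Brg1 wildtype array, while the Snf2h cKO and wildtype arrays overlapped. The Snf2h wildtype arrays (4.20 to 5.46) already lay at the level of the Brg1 cKO arrays (3.95 to 5.49). The difference therefore rests on the Brg1 wildtype group, which was 2.48 above the Snf2h wildtype group.

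Gjb2 stood out for 1 distant array in the Snf2h wildtype group. Replicate 2 had a log2 intensity of 6.58 and the other 3 arrays 8.10 to 8.34, so its gap to the nearest array was 0.862 of the group's whole range. This was the 1 distant array found in 24 groups of 4 arrays, and chance flags about 1 in 20.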

How the results depend on the processing

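Gja3 kept its negative change in Brg1 cKO eyes and in the difference of effects under every alternative that tested it. Its call was lost with a replicate block (−2.89, adjusted p = 0.0921, and −3.035, adjusted p = 0.135). With 1 array left out, the call was kept in only 2 of 6 fits for Brg1 and 8 of 14 for the difference. Gja3 was too dim for the filter at a log2 level of 6.87, where 0 of 6 connexin probe sets were called in either test. Same-numbered arrays were not treated as paired in the main fits. Their deviations correlated with r of −0.23 to 0.057 in the Snf2h and 0.066 to 0.133 in the Brg1 experiment, and not every array was closest to its own number. With 3 or 4 arrays in a group, these values cannot decide whether arrays were paired. The replicate block gave 0, 50 and 81 called probe sets for Snf2h, Brg1 and the difference, and 0 connexins in each.

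All called probe sets numbered 0 for Snf2h, 127 for Brg1 and 140 for the difference. For Snf2h there were 5 with the dim filter, 2 with 1 probe set per gene, 3 with all probe sets, 7 with trended robust eBayes, 5 in 1 fit over all arrays and 561 with array weights, and 0 connexins in each. Brg1 gave 15 with the dim filter and 280 in 1 fit over all arrays, and the difference gave 7 with the filter and 82 with cKO replicates averaged. Leaving out 1 array gave 0 to 184 (Snf2h), 25 to 199 (Brg1) and 66 to 290 (difference) calls, among them 0, 0 to 1 and 0 to 2 connexin probe sets. The cause of these shifts was not tested.

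Signs turned for changes near 0. For Snf2h, array weights gave 0.18 for Gja4, −0.0797 for Gja5 and −0.33 for Gja3, and averaging gave 0.0237 for Gja1 1415800_at. Leaving out 1 array gave −0.0688 to 0.0589 for that probe set, −0.24 to 0.14 for Gja4, −0.0194 to 0.11 for Gja5, −0.15 to 0.33 for Gja3 and −0.27 to 0.48 for Gjb5. For Brg1 it gave −0.00104 to 0.26 for Gja5 and −0.13 to 0.31 for Gjb5. For the difference, quantile normalisation gave −0.0097 for Gja5 and 0.0293 for Gja1 1438945_x_at, array weights 0.00147 for the same probe set, and averaging −0.0351 for Gjb5. Leaving out 1 array there gave −0.0244 to 0.0869 for 1437992_x_at, −0.0860 to 0.11 for 1438945_x_at, −0.0139 to 0.11 for 1438973_x_at, −0.0449 to 0.22 for Gja5 and −0.34 to 0.42 for Gjb5. Depth here means brightness: 6 of 12 connexin probe sets lay below the median level.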
